A study of Homo sapiens with 8 samples.

Results

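The *MARS1* locus on 12q13 was defined by 5 neighbouring genes, *MARS1*, *DDIT3*, *MBD6*, *ARHGAP9* and *DCTN2*. Its enhancers were all regions that overlapped the body of 1 of these genes or lay within 50 kb of its transcription start site (TSS) in GRCh38. Within the locus, regions were chosen by position alone and not by their signal. It returned 3 regions in HD-MB03, 5 in D425, 3 in MB002 and 0 in UW228, which made 11 of the 88550 enhancers of the series. The 5 genes were part of 27449 RefSeq genes to which enhancers were assigned in the same way.

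The study set the super-enhancers (SEs) of Group 3 medulloblastoma (G3-MB), a childhood tumor of the cerebellum, against those of a line from another subgroup. Chromatin was immunoprecipitated with an antibody against H3K27Ac and sequenced beside input DNA, in the established G3-MB lines HD-MB03 (HDMB03 in the labels), D425 and MB002 and in UW228, which is labelled as SHH subtype. No line was treated or genetically altered for these libraries. MB002 and HD-MB03 were grown in stem cell medium with growth factors, whereas D425 and UW228 were grown in medium with serum. There was a single H3K27Ac library and a single input library per line, so there was no spread between replicates, no test was made, and every difference between lines is a difference between single libraries. The 3 G3-MB tables and the UW228 table also carry different creation dates and ROSE run names, and run and subgroup cannot be told apart.

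H3K27Ac is an acetylation of histone H3 found at active enhancers and promoters. ROSE joins neighbouring H3K27Ac peaks, orders the joined regions by signal, and calls those above a cutoff on the steep part of the curve SEs; the remainder are typical enhancers (TEs). *MARS1* encodes the cytosolic methionyl-tRNA synthetase, which loads methionine onto its tRNA for the start and elongation of translation. *DDIT3*, which lies tail to tail with it on the opposite strand, encodes CHOP, a transcription factor of the integrated stress response that is induced by ATF4. *MBD6* encodes a protein with a methyl-CpG-binding domain, *ARHGAP9* a GTPase-activating protein, and *DCTN2* the dynamitin subunit of dynactin, the partner of the dynein motor. To the left of *ARHGAP9* lies *GLI1*, a transcription factor and target gene of Hedgehog signaling.

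All genes of the locus lie on chromosome 12. *MARS1* runs on the plus strand from chr12:57488068-57516652, and *ARHGAP9* runs the other way from chr12:57472269-57488824, so that their starts are 756 bp apart and the genes overlap there. *DDIT3* occupies chr12:57516588-57520517 on the minus strand, *MBD6* occupies chr12:57520715-57531545 on the plus strand, and *DCTN2* occupies chr12:57530051-57547192 on the minus strand. *DDIT3* and *MBD6* thus start close to each other, 32449 and 32647 bp to the right of the *MARS1* TSS, and *DCTN2* starts 59124 bp to its right. To the left lie *GLI1* at chr12:57459785-57472268, *INHBE* at chr12:57455307-57458025 and *INHBC* at chr12:57434784-57452062, all on the plus strand. *INHBC* and *INHBE* encode the beta C and beta E subunits of inhibins and activins.

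The strongest *MARS1* enhancer of the 3 G3-MB lines was not in *MARS1* but 23629 to 31142 bp to the left of its RefSeq TSS. It lay over the end of *INHBC*, most or all of *INHBE* and, in MB002 and HD-MB03, the start of *GLI1*. The stretch that the 3 lines had in common there was chr12:57451209-57456926, 5717 bp long, with the *INHBE* TSS inside it. Of this stretch, 47.8% was exonic, 47.7% intronic and 4.55% intergenic by GENCODE 44. Its GC content was 54.5%, and windows of the same length at the chromosome 12 enhancers had a median GC content of 43.8% in HD-MB03, 41.6% in D425 and 41.5% in MB002. It held 2 matches to CARE, the element TGATGNAAN bound by ATF4 with C/EBP partners, searched on both strands; at least as many were found in 30.1%, 31.1% and 32.9% of those windows. Since ATF4 targets include many aminoacyl-tRNA synthetase genes and *DDIT3*, both matches are shown with 60 bases on either side, plus strand of GRCh38, with the matched letters in capitals. Both lie 699 and 223 bp before the RefSeq TSS of *INHBE* and overlap no exon. GENCODE 44 starts the gene at 57452323, so that both are intronic there.
Shared enhancer, chr12:57454540-57454668: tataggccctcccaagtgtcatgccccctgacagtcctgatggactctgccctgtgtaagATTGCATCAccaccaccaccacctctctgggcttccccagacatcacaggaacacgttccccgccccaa
Shared enhancer, chr12:57455016-57455144: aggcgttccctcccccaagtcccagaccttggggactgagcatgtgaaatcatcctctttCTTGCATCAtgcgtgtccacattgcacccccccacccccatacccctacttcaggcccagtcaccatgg
The capitals are the reverse complement of the element in both. The stretch also held 3 matches to TAATCC, the core recognised by CRX and OTX2, both homeobox factors of G3-MB, against medians of 5 in the windows of MB002 and D425 and 4 in those of HD-MB03. It therefore held no more of them than a usual enhancer of the chromosome.

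Promoters are shown for *MARS1* and, as the members with an enhancer over their start in any line, for *DDIT3* and *MBD6*, from RefSeq (GRCh38.p14), 250 bases before the start and 25 after it, with motif matches in capitals. The *MARS1* start was under no deposited enhancer in any line, and those of *DDIT3* and *MBD6* were under an enhancer in HD-MB03 alone.
*MARS1* promoter, chr12:57487818-57488092, plus strand: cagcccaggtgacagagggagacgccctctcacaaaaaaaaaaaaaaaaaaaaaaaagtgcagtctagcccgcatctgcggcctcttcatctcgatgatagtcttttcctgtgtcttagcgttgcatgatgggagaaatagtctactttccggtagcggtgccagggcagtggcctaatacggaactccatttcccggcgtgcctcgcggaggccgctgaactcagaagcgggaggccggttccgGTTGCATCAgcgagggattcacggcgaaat
*DDIT3* promoter, chr12:57520493-57520767, minus strand: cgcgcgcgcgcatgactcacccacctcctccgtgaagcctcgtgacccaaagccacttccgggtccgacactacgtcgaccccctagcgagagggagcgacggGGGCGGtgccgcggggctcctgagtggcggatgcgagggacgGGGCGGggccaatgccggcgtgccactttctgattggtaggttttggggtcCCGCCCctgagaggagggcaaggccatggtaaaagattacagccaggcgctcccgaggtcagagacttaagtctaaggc
*MBD6* promoter, chr12:57522574-57522848, plus strand: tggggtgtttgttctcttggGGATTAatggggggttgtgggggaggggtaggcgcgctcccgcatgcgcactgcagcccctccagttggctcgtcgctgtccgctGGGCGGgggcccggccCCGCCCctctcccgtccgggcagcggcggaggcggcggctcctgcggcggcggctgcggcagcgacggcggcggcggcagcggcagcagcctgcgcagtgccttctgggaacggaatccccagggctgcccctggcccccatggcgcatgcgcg
The capitals in the *MARS1* promoter are a CARE match on the opposite strand, which begins 5 bases before the start. CARE was found in 3.61% of 35116 promoters. In the *DDIT3* promoter the capitals mark 3 GC boxes (GGGCGG or its complement), a motif present in 45.0% of promoters. No exact match to CARE or to the letters used for the ER stress element was in that window. Near matches were not searched for, so an ER stress element with a changed base may still be present there. In the *MBD6* promoter the capitals mark a TAATCC match on the opposite strand, a motif in 6.36% of promoters, and 2 GC boxes. This *MBD6* entry starts inside the gene, at 57522824. These matches describe letters only, and no binding was measured. *ARHGAP9*, *INHBE* and *GLI1* had no promoter entry.

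**Figure D1:**
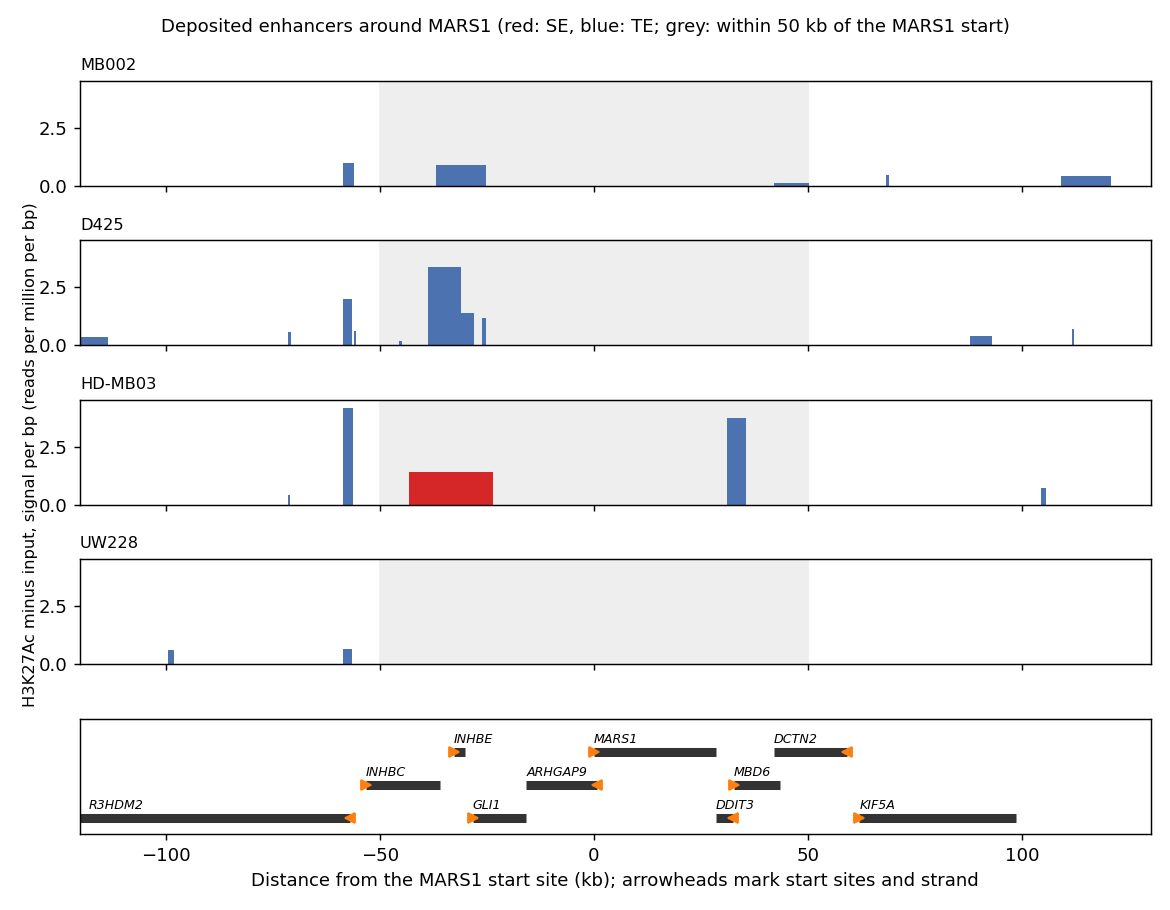
Deposited enhancers of each line around *MARS1*, with the H3K27Ac signal minus input per bp on the vertical axes and the distance from the *MARS1* TSS in kb on the horizontal axis; genes are drawn below with arrowheads at their TSSs, and the shortest regions are drawn wider than they are to be visible. All 3 G3-MB lines have an enhancer to the left of *MARS1* inside the grey 50 kb window, HD-MB03 has a second narrow one at *DDIT3* and *MBD6*, and UW228 has none in the window.

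With the deposited calls, *MARS1* was SE-associated in HD-MB03 and in no other line. The HD-MB03 call was lost at rank 252 without input subtraction, at rank 1239 by signal per bp for this region, and by overlap of the gene body only, where *MARS1* had no enhancer. The D425 enhancer became an SE in 4 other settings, at ranks 125 to 528. The HD-MB03 enhancer at chr12:57444900-57464439 was 19539 bp long and joined 3 peaks. The deposited H3K27Ac signal of the region was 29807 and its input signal 2059, both in reads per bp scaled to the library size (rpm/bp) and multiplied by the length. The difference, 27747, was 121% of the SE cutoff of the line and ranked 203 of 15286 enhancers, of which 302 were SEs. By signal per bp it was less prominent, with 1.42 rpm/bp and rank 1239. The region thus ranked higher by total than by mean signal.

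In D425 the same position held a shorter and higher region that narrowly missed the call. The enhancer at chr12:57449216-57456926 was a single peak of 7710 bp with H3K27Ac 27260, input 1203 and a difference of 26057. This was 99.4% of the cutoff of 26206, or 148.8 units short of it, and the region ranked 437, which is 6 ranks below the last SE at 431. By signal per bp, 3.38 rpm/bp, it ranked 125 of 26317. Its position relative to the call therefore differed between total and mean signal.

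In MB002 the enhancer at chr12:57451209-57462868 was a TE well below the cutoff. It was 11659 bp long with 3 peaks, H3K27Ac 12419 and input 1931. The difference of 10488 was 32.4% of the cutoff of 32353 and ranked 2042 of 26072. The signal per bp was 0.900, which ranked 4574. Even so, its total was 11.8 times the median enhancer of MB002, and 7.83% of the enhancers of the line ranked as high or higher.

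The MB002 region was wholly inside that of HD-MB03, of which it covered 59.7%, and the D425 region was also wholly inside it and covered 39.5%. The MB002 and D425 regions overlapped in part, by 49.0% of the MB002 region and 74.2% of the D425 region. At the left and right edges the HD-MB03 region reached farther than both.

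In UW228 none of the 5 genes had an enhancer. The nearest deposited regions were chr12:57429436-57431682 on the left, 19527 bp before the shared stretch begins, with signal 1432 and rank 11206, and chr12:57831536-57845110 on the right with signal 5764 and rank 4764. Between them 399854 bp held no enhancer. The left one lay over the start of *R3HDM2*, a gene for a protein with an R3H domain, and an enhancer was present at that start in all 4 lines, 55960 to 56435 bp from the *MARS1* TSS and so just outside the 50 kb window. Its rank was 1121 in HD-MB03, 4273 in D425, 7039 in MB002 and 11206 in UW228, and its signal 10617, 4446, 2631 and 1432. The *R3HDM2* start was therefore under a deposited enhancer in UW228 as well, at the lowest total of the 4. The stretch at *INHBE* was under none, and the signal outside deposited regions is not known. The *R3HDM2* enhancer was also the best enhancer of *GLI1* in UW228, 28103 bp from the *GLI1* TSS. None lay over *GLI1* itself in this SHH line.

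The *MARS1* enhancer was shared by 2 of the 5 members in each G3-MB line, *MARS1* and *ARHGAP9*. *ARHGAP9* is on the other strand with nearly the same start, so its values were those of *MARS1* at distances of 24385 bp in HD-MB03, 31898 bp in D425 and 25956 bp in MB002. *DDIT3*, *MBD6* and *DCTN2* start more than 50 kb from it and were not assigned to it. Outside the members, *R3HDM2*, its divergent transcript *R3HDM2-DT*, *INHBC*, *INHBE* and *GLI1* had the same region as their best enhancer in each of the 3 lines, and the microRNA gene *MIR6758* within *MARS1* did in MB002 and HD-MB03. In all, 8 genes in HD-MB03, 7 in D425 and 8 in MB002 were assigned to it. The median was 1 gene over all enhancers and 2 over SEs in each of these lines. At least as many genes were on 6.29%, 5.34% and 3.58% of the SEs and on 2.64%, 2.80% and 1.53% of all enhancers. The *INHBE* TSS lay inside the region in all 3 lines and the *GLI1* TSS in MB002 and HD-MB03, while *MARS1* was among the farthest of the genes. H3K27Ac does not show which of these genes the region acts on.

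The body of *MARS1* overlapped no enhancer in any of the 4 lines. Over all genes, the body of 25.6% overlapped an enhancer in HD-MB03, 32.8% in D425, 32.8% in MB002 and 28.2% in UW228. *ARHGAP9* also had no enhancer over its body in any line, *DDIT3* had one in HD-MB03, *MBD6* had one in MB002 and HD-MB03, and *DCTN2* had one in MB002.

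The deposited regions of the right part of the locus, with *DDIT3*, *MBD6* and *DCTN2*, differed more between the lines than those of the left part. The study's methods state that regions near promoters were left out, so an absent entry at a gene start does not show low signal there. In HD-MB03 a single peak of 4445 bp at chr12:57519200-57523645 covered the starts of *DDIT3*, *MBD6* and the microRNA gene *MIR616*. Its signal of 16598 was 72.4% of the SE cutoff and ranked 604, and its 3.73 rpm/bp ranked 176. By mean signal it was thus higher than the HD-MB03 SE left of *MARS1*. It was the best enhancer of *DDIT3*, *MBD6* and *DCTN2*, and lay within 50 kb of the starts of *MARS1*, 31132 bp away, and *ARHGAP9*, 30376 bp away, so that in HD-MB03 it was assigned to all 5 members.

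In MB002 the best enhancer of *DDIT3*, *MBD6* and *DCTN2* was chr12:57530228-57538423, 8195 bp with 2 peaks over the 3' part of both *MBD6* and *DCTN2*. Its signal of 974.4 was 3.01% of the cutoff and ranked 12533, and its 0.119 rpm/bp ranked 24868. The total was close to that of the median enhancer, at 1.09 times it. In D425 *DDIT3* and *MBD6* had no enhancer. *DCTN2* had one there inside *KIF5A*, chr12:57576020-57581132, 28828 bp from its TSS, with signal 2039, 7.78% of the cutoff and rank 7644.

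The remaining regions were not the best enhancer of any member. MB002 had a 304 bp region at chr12:57556364-57556668 with signal 144.7 and rank 22633. HD-MB03 had chr12:57592490-57593720 with signal 868.6 and rank 7544, at 45298 bp from the *DCTN2* TSS and so among the members nearest the edge of the window. D425 had chr12:57457123-57460160 over the end of *INHBE* and start of *GLI1* with signal 4199 and rank 4497, chr12:57461927-57462779 in *GLI1* with signal 1004 and rank 11332, and chr12:57442649-57442884 in *INHBC* with signal 43.8 and rank 26150, 45184 bp from the *MARS1* TSS. Just outside, an MB002 region at chr12:57597215-57608748 with signal 5047 lay 50023 bp from the *DCTN2* TSS, and was left out by the window.

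**Figure D2:**
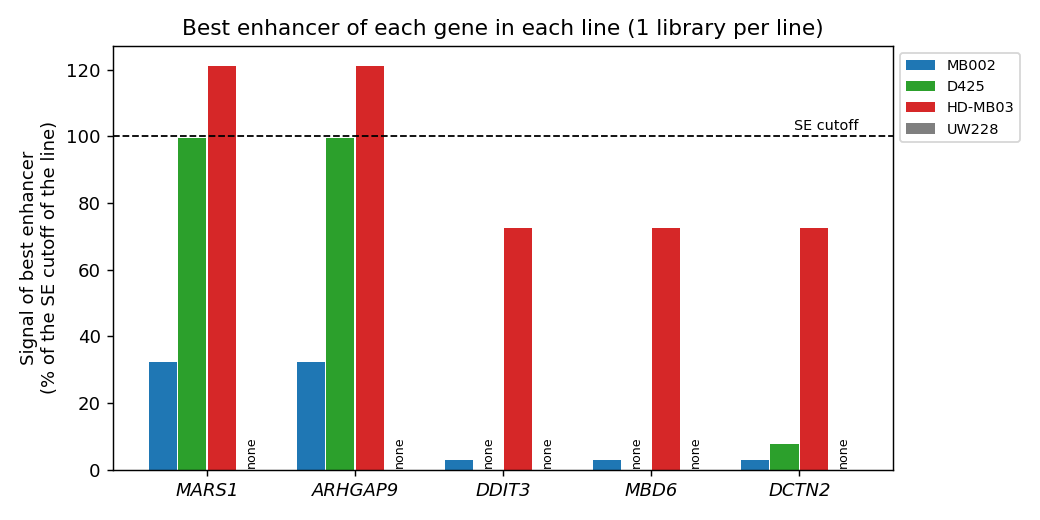
Signal of the best enhancer of each of the 5 genes as a percentage of the SE cutoff of its line, with 1 library per line and kind and no error bars; "none" marks a gene without an enhancer. Only *MARS1* and *ARHGAP9* in HD-MB03 are above the dashed cutoff at 121%, both are at 99.4% in D425, and UW228 has no bar.

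Of the 5 members, 2 were SE-associated in HD-MB03, 0 in D425, 0 in MB002 and 0 in UW228, where the share over all genes was 3.03%, 4.18%, 3.18% and 5.24%. Of their 3, 5 and 3 regions in HD-MB03, D425 and MB002, 1, 0 and 0 were SEs, against 1.98%, 1.64% and 1.39% of all enhancers, and UW228 had 3.61% SEs but no region here. Since *MARS1* and *ARHGAP9* rest on 1 region, the 2 calls in HD-MB03 are a single SE. Under other settings, given at the end, the number of SE-associated members ranged from 0 to 5 in HD-MB03 and from 0 to 2 in D425. At least 1 enhancer was assigned to 5, 3, 5 and 0 members in HD-MB03, D425, MB002 and UW228, against 54.2%, 69%, 67.4% and 59% of all genes. Summed over the locus, the signal was 45214 across 25214 bp in HD-MB03, 33343 across 16946 bp in D425 and 11608 across 20158 bp in MB002. Per bp covered this was 1.79, 1.97 and 0.576, so that D425 and HD-MB03 changed places, and relative to the median enhancer of the line it was 53.5, 46.5 and 13.04. With the 50 kb window MB002 was the lowest of the G3-MB lines in each of the 3 measures. With a window of 25 kb the sum was 44345, 0 and 1119, so that D425 was then the lowest.

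The D425 region was deposited in pieces. From chr12:57416737-57462779, D425 had 7 enhancers of 1 peak each, separated by gaps of 12360, 328, 10497, 6331, 196 and 1766 bp. Of these gaps, 5 were below the stitching distance of 12 kb in the table header, and the longest was below the slightly longer distance in the study's methods. Their entries lacked the mark that ROSE gives a stitched region, as did 4 of the 5 D425 regions of the locus. In D425 2030 enhancers, 7.71% of the line, lacked it, and 2030 lay within that longer distance of another enhancer. The numbers without the mark were 460 in HD-MB03, 588 in MB002 and 463 in UW228, and no region of the locus in MB002 or HD-MB03 was among them. The 7 pieces summed to 36043, which is 138% of the D425 cutoff and would rank 232 on the deposited list. After joining of all enhancers within that distance over the genome, the *MARS1* enhancer of D425 ranked 244 and was an SE. The cause of the separate entries was not tested. In HD-MB03 the gap between the SE and the *R3HDM2* enhancer was 12980 bp, just above the stitching distance, and in MB002 it was 19100 bp.

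The input density of an enhancer, its input per bp over the median of the line, is used here as a measure of local copy number and mappability, since DNA that is amplified gives more input reads. The best *MARS1* enhancer had a relative input density of 0.895 in HD-MB03, 1.17 in D425 and 1.22 in MB002. Over the regions of the locus it was 0.732 to 0.895 in HD-MB03 with a median of 0.850, 0.824 to 1.66 in D425 with a median of 1.04, and 0.101 to 1.22 in MB002 with a median of 0.905. The central 90% of all enhancers spanned 0.307 to 1.76, 0.289 to 2.09 and 0.347 to 1.80. All but the 304 bp region of MB002 were inside these ranges. Within 500 kb of the *MARS1* enhancer the medians were 0.893, 1.06 and 1.04. *CDK4*, a cell cycle kinase gene 264242 bp to the right that is often co-amplified with *GLI1* in tumors, had a TE as its best enhancer, at rank 481 in HD-MB03, 7512 in D425 and 710 in MB002, with relative input densities of 1.03, 1.70 and 1.13, and had none in UW228. The locus therefore showed no raised input in the line with the SE.

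**Figure D3:**
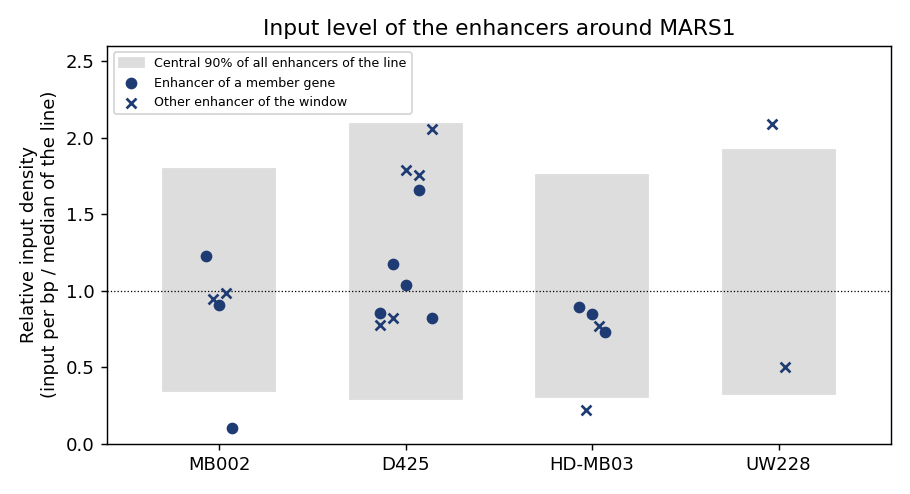
Relative input density (input per bp over the median of the line) of the enhancers in and around the locus; filled points are enhancers of the 5 genes, crosses are other enhancers within 100 kb of the locus, and grey bars span the central 90% of all enhancers. The points of HD-MB03 lie between 0.223 and 0.895, below the dotted line at 1, and the highest point of D425 is at 2.05.

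To set *MARS1* beside its functional relatives, 22 genes of the other cytosolic aminoacyl-tRNA synthetases and of the scaffold proteins of their complex were examined. None was SE-associated in any line, against 3.03%, 4.18%, 3.18% and 5.24% of all genes in HD-MB03, D425, MB002 and UW228. TEs were assigned to 10 of them in HD-MB03, 15 in D425, 12 in MB002 and 18 in UW228, where 54.2%, 69%, 67.4% and 59% of all genes had an enhancer. The median rank of the best enhancer was 6585.5, 7495, 9617 and 6440.5, compared with 4154, 6422, 7008 and 6763.5 over all genes with an enhancer. The study chose *MARS1* partly for SE calls in G3-MB lines that include these, so a rank above its relatives is partly fixed by that choice. No gene of the list ranked above *MARS1* in D425 or HD-MB03. In MB002 2 did, named because they passed it: *KARS1*, the lysyl-tRNA synthetase gene, at rank 1180 and *YARS1*, the tyrosyl-tRNA synthetase gene, at rank 1306. In UW228 *MARS1* had no enhancer within 50 kb, and it had a TE at rank 11206 with a window of 100 kb or with its GENCODE start.

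**Figure D4:**
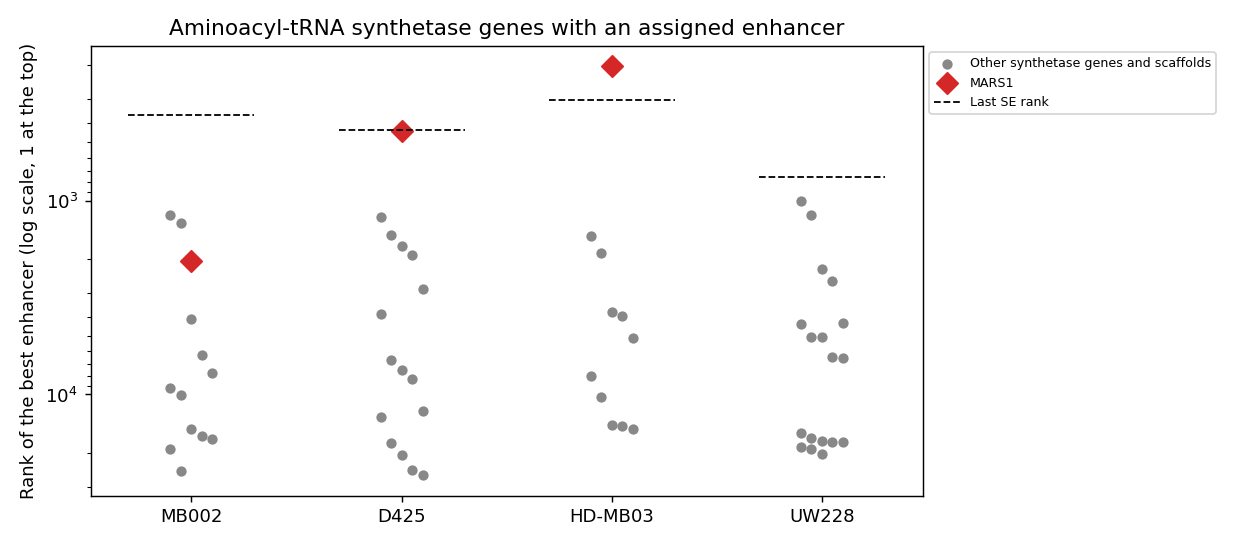
Rank of the best enhancer of *MARS1* (red diamonds) and of the other synthetase and scaffold genes with an enhancer (grey points) in each line on a log scale, with rank 1 at the top; dashed lines mark the last SE rank, which is 363, 431, 302 and 753 from left to right. *MARS1* lies above all grey points in D425 and HD-MB03, below 2 of them in MB002, and has no point in UW228.

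Among 20 genes of the integrated stress response and unfolded protein response, to which *DDIT3* belongs, 4 were SE-associated in HD-MB03, 3 in D425, 0 in MB002 and 2 in UW228, which is 20%, 15%, 0% and 10% of the list against 3.03%, 4.18%, 3.18% and 5.24% of all genes. These were the only SE-associated genes of the 4 lists in HD-MB03 and D425. Over the 4 lists the HD-MB03 count was 2 without input subtraction, within 25 kb or by overlap of the gene body. The D425 count was 1 by overlap of the body or by signal per bp. *TRIB3*, a pseudokinase gene induced by CHOP and ATF4, had an SE at rank 29 in D425 and 124 in HD-MB03. *CEBPG*, a C/EBP partner of ATF4, had one at rank 54 in D425, and *ATF3*, a stress-induced transcription factor, at rank 84 in HD-MB03. *BBC3*, which encodes the pro-apoptotic PUMA, had one at rank 250 in HD-MB03. The D425 SE covered the *TRIB3* TSS and the *BBC3* SE lay 797 bp from its TSS, whereas the *TRIB3* SE of HD-MB03 was 49462 bp, that of *CEBPG* 41958 bp and that of *ATF3* 46178 bp away, near the edge of the 50 kb window. In HD-MB03, where *DDIT3* ranked 604, 5 of the 20 genes ranked above it, and in MB002, where it ranked 12533, 13 did. *DDIT3* was without an enhancer in D425, where *TRIB3* and *CEBPG* had SEs. In HD-MB03, where *TRIB3* also had an SE, *DDIT3* had a TE.

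Of 10 other dynactin subunit genes, 1 was SE-associated in MB002, 1 in UW228 and 0 in the other lines, against 3.18% of all genes in MB002 and 5.24% in UW228. A single gene in a list of 10 is no result about the list. The MB002 gene was *ACTR10* at rank 8, whose enhancer had a relative input density of 32.3, and the UW228 gene was *DCTN4* at rank 236 with 1.25. *DCTN2* ranked above all 10 in HD-MB03, but below 4 in MB002 and 6 in D425. Of 6 other methyl-CpG-binding domain genes, 0 were SE-associated in the 3 G3-MB lines. *MBD6* ranked above all 6 in HD-MB03 and below 3 of them in MB002.

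The genes over 1 Mb away whose ranks over the 4 lines were nearest to those of *MARS1*, by Euclidean distance of the log10 rank over 4 lines, were *GFER*, *SYNGR3* and *ZNF598* on chromosome 16, *KLHDC2* on chromosome 14 and *CATIP* on chromosome 2. The first 3 shared 1 enhancer, with ranks 312 in HD-MB03, 646 in D425, 1669 in MB002 and none in UW228, at a distance of 0.267. *KLHDC2* ranked 322, 688 and 2654 at a distance of 0.303, and *CATIP* ranked 429, 596 and 2238 at a distance of 0.354, both also without an enhancer in UW228.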

How the data were processed

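The authors sequenced H3K27Ac ChIP and input DNA from 4 lines, with 1 library of each kind in a line. Per the submitters' processing notes and the study's methods, reads were aligned to GRCh38 with Bowtie2 2.3.0, converted to BAM with SAMtools 1.9 and cleared of duplicates and multi-mapping reads with sambamba, and peaks were called with MACS2 2.2.6 at a q-value of 0.05. ROSE then stitched neighbouring peaks, within 12 kb per the file headers. The methods state that regions near promoters were left out, but in HD-MB03, D425 and MB002 7.86%, 5.82% and 6.16% of the deposited enhancers hold a TSS. The deposited signal of each enhancer is in reads per bp scaled to library size and then multiplied by length, for H3K27Ac and for input. The input is not subtracted in it. Ranks and SE calls are a further deposited score. Total reads were not in the tables, so the depth is unknown and no interval from counts was given.

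Signal was H3K27Ac minus input, floored at 0, and its order equalled the deposited ranks. Length was end minus start. Python 3.11.15 with pandas 2.3.3, numpy 2.4.6 and matplotlib 3.10.9 was used. Genes were the 27449 of 29989 curated RefSeq genes that had a strand in GENCODE 44. The best enhancer of a gene is its highest ranked. All 1714 chromosome 12 promoters were found in the genome at their RefSeq coordinates. Assignment, cutoff and local input were tested on simulated data. The members and gene lists were chosen with earlier results of these data known. Named genes were the members, the other genes on the best *MARS1* enhancer, *GLI1* and *CDK4*, up to 4 SE-associated genes per list with the lowest ranks, and the 5 genes nearest to *MARS1* in rank. The UW228 result of 1 listed gene is not reported here. *KARS1*, *YARS1* and genes that only locate a region were named after their values were seen.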

Additional observations from a re-analysis of the deposited data

How the results depend on the processing

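Of 147 values recomputed under alternatives, 106 stayed on their side of the SE call and within 1.5 times the main value, and 41 did not. The 41 include the locus sums in other units, which were counted as changed without a comparison. For settings in which *MARS1* had no enhancer, the 147 hold no rank and no sharing count. The HD-MB03 rank by signal per bp was counted as unchanged although it belongs to another region. In D425 the best *MARS1* enhancer became an SE at rank 528 after division by its own relative input density and at rank 490 after division by the median within 500 kb, where 8.91% and 8.77% of all genes were SE-associated. It stood further down the list there than at rank 437, but the number of SEs rose from 431 to 998 and 965. It was also an SE at rank 125 by signal per bp (4.32% of genes) and at rank 244 with enhancers within the stitching distance joined (4.42%), and in each of these 4 settings 2 members were SE-associated. In HD-MB03 it fell to rank 252 and lost the call without input subtraction, which left 0 members SE-associated, and by overlap of the gene body only the count was also 0. There 5 members were SE-associated after division by the median within 500 kb (10.7% of genes, 1048 SEs), by signal per bp (2.97%) and within 100 kb of the TSS (4.55%). By signal per bp the HD-MB03 region left of *MARS1* ranked 1239 and was no SE. The region at *DDIT3* and *MBD6* at rank 176 took its place as best enhancer of *MARS1*, and 5 members shared that one. In MB002 the rank was 4574 by signal per bp. Within 100 kb, 5 members shared the *MARS1* enhancer in MB002, D425 and HD-MB03.

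The locus sums became 0.576, 1.97 and 1.79 in MB002, D425 and HD-MB03 as mean signal per bp, and 13.04, 46.5 and 53.5 over the median enhancer. In MB002 the sum was 19285 within 100 kb and with GENCODE starts, 1119 within 25 kb and 974.4 by overlap of the body. In D425 it was 0 within 25 kb and by overlap of the body, and in HD-MB03 16598 by overlap of the body.

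Of the 58 listed genes, 1, 3, 4 and 4 were SE-associated in MB002, D425, HD-MB03 and UW228, against 3.18%, 4.18%, 3.03% and 5.24% of all genes. In MB002 the count was 0 after either division by input (7.60% and 6.82% of all genes). It was 2 with enhancers joined (3.73%) and 2 by signal per bp (3.88%). In D425 it was 1 by overlap of the body (2.16%). In HD-MB03 it was 2 without input subtraction (2.204%), 2 within 25 kb (2.28%) and 2 by overlap of the body (1.56%). In UW228 it was 8 within 100 kb (7.57%) and 2 by overlap of the body (3.05%). *MARS1* had no enhancer within 25 kb in MB002 and D425, nor by overlap of the body in any line. In UW228 it gained the *R3HDM2* enhancer, a TE at rank 11206, within 100 kb and with the GENCODE start, which lies at -12623 bp from the RefSeq start. Joining, GENCODE starts and the other windows for the locus sum were chosen after seeing the data. The causes were not tested. No paired analysis was possible because each line has 1 library of each kind.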
